A study of Mus musculus with 4 samples.

Results

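The regions described here were H3K36me3 peaks inside long, many-intron genes of the embryonic mouse forebrain. A peak belonged to the set when the deposited annotation placed it in intron N of M of a transcript, with M of 30 or more and N neither the first nor the last intron. The rule used position alone and no measured value. It selected 7181 of the 95750 cKO peaks and 2395 of the 36820 WT peaks, or 9576 of 132570 peaks in both lists together. These peaks lay on 397 host genes, 390 of them with such a peak in cKO and 298 in WT. The host transcripts had up to 115 introns, with a median of 37 per host gene.

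The tested tissue was forebrain of H2A.z1cKO embryos, in which the histone variant H2A.z was deleted in the brain, and the tissue it was set against was WT forebrain. Both were taken at E13, an embryonic stage of active cortical neurogenesis, and the cells were described as neural progenitors. Each genotype gave 1 H3K36me3 ChIP library and 1 input library, and the input served as the control for peak calling. The promoter that drove the deletion, and whether embryos were pooled, are not given in the sources used here. No genotype had a replicate ChIP library, so no difference between cKO and WT could be tested. The intervals given with shares are exact binomial 95% intervals and cover counting error only. Peaks of 1 gene are not independent, so these intervals are too narrow.

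H3K36me3 is a histone mark laid down behind elongating RNA polymerase II, mainly by the methyltransferase SETD2, and it is found over the bodies of transcribed genes rather than at their promoters. It usually forms long domains, is often stronger towards the 3′ end, and has been linked to splicing and to the suppression of transcription starts inside genes. Genes with many introns give the mark long internal stretches, and many of them encode giant proteins such as ubiquitin ligases, spectrin-family scaffolds, motor proteins and chromatin remodellers.

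The peak lists were called from 32927164 ChIP tags in cKO and 31984670 in WT, and from 35026817 input tags in cKO and 38500353 in WT. The fragment length estimated by the peak caller was 185 bp in cKO and 152 bp in WT. The deleted gene, H2az1, carried 2 peaks in cKO and 1 in WT, over 21.1% of its body in cKO and 7.80% in WT, and a histone-mark peak does not check a deletion. Of 10 neural progenitor markers, 9 carried a gene-body peak in cKO and 7 in WT, and Fabp7 had none in either list. Neuron markers carried peaks at 2 of 5 genes in cKO and 2 of 5 in WT. Endothelial and mesenchymal markers carried none at 4 genes each in cKO or WT, while 1 of 4 erythroid and 1 of 4 microglial markers carried a peak in cKO and 0 of 4 of each in WT.

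The short RNAs that lie inside these peaks are shown because the mark covers their whole hairpin together with the host intron. MicroRNAs are short RNAs that repress target messages by pairing through a seed. Of 37 microRNA hairpins lying in the spans of the host genes, 4 fell inside a peak of the set in cKO and 0 in WT. A peak of any class overlapped 23 of the 37 in cKO and 7 in WT. The mature sequences, from RefSeq on GRCm38.p6, have the seed (bases 2 to 8) in capitals.
mmu-miR-6997-5p: uAACAGGCuggagaggugcaga
mmu-miR-6997-3p: uCAAACCUuacccuccuguuucc
mmu-miR-7037-5p: aAGGUGGCcacaggagaucauggu
mmu-miR-7037-3p: uGUCUCCUaaugucaccugcag
mmu-miR-7081-5p: aGAGGAGGgugcucggccggggauua
mmu-miR-7081-3p: uUCCCCUGguauccuccucaca
mmu-miR-693-5p: cAGCCACAuccgaaaguuuuc
mmu-miR-693-3p: gCAGCUUUcagauguggcuguaa

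The 8 mature sequences had 8 distinct seeds. Mir6997 lay in a 14520 bp cKO peak of Sptan1, which encodes non-erythroid alpha-spectrin, labelled intron 19 of 54. Mir7037 lay in a 5502 bp cKO peak of Ints1, a subunit of the Integrator complex, labelled intron 10 of 46. Mir7081 lay in a 6765 bp cKO peak of Dnmt1, the maintenance DNA methyltransferase, labelled intron 27 of 38. Mir693 lay in a 4188 bp cKO peak of Xpo5, which exports microRNA precursors from the nucleus, labelled intron 19 of 31. Each of these 4 cKO peaks was also overlapped by at least 1 WT peak. The peaks say that the mark was called over the hairpin and nothing about the amount of the microRNA.

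Gene starts inside the host introns were the other annotated sequences that the peaks reached. Of 32851 RefSeq windows of 300 bases around annotated gene starts, 10 were overlapped by a peak of the set in cKO and 2 in WT. The windows were not limited to host genes, and peaks labelled as promoters are outside the set, so low counts follow from the rule. In cKO, peaks of Kif1a and Ncapd3 overlapped windows of those same genes by only 2 and 42 bases. The 3 windows below, each the start of a long noncoding RNA, are shown as examples in which a peak of the set covered all 300 bases in at least 1 genotype. CpG dinucleotides are in capitals, and the sequences are from RefSeq on GRCm38.p6.
Gm39010: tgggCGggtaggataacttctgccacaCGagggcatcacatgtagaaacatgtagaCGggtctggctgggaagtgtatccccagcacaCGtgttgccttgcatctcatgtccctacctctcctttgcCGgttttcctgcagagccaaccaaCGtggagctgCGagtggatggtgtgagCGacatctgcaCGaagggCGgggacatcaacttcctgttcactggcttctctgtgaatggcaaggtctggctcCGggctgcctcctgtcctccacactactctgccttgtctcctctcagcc
Gm41568: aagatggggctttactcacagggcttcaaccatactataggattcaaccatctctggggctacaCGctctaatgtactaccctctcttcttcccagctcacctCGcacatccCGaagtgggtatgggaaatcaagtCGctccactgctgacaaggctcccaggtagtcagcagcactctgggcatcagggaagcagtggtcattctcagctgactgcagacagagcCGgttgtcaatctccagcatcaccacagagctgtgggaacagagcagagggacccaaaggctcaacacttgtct
Gm40091: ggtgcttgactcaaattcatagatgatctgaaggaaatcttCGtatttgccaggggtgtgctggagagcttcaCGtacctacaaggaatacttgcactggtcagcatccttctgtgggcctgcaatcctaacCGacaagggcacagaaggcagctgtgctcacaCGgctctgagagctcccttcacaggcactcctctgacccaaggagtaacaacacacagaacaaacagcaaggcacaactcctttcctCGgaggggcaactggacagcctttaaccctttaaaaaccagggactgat

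The Gm39010 window (chr7:46041328-46041627, plus strand) lay in Nomo1, labelled intron 4 of 30, and a cKO peak covered 300 of its bases and a WT peak 235. The Gm41568 window (chr17:32139544-32139843, plus strand) lay in a cKO peak of the Notch receptor gene Notch3, labelled intron 27 of 32. The Gm40091 window (chr3:88899708-88900007, minus strand) lay in a WT peak of Gon4l, labelled intron 22 of 30. The cKO peak over Gm41568 was also overlapped by a WT peak, and the WT peak over Gm40091 by a cKO peak. The Gm39010 window held 11 CpGs and the Gm41568 and Gm40091 windows 5 each, against a median of 7 over all windows. None of the 3 held the letters TATAAA on either strand, which 13.6% of all windows held. At the host genes' own starts the median was 26 CpGs (quartiles 18 and 33.5) for 307 of 396 host genes with a RefSeq identifier, against 13 (quartiles 3 and 24) for 17184 other protein-coding genes. TATAAA was found in 3.58% of the host windows and 13.5% of the others. The other genes were not limited to genes with a peak. Genes with internal-intron peaks on shorter transcripts were not compared apart.

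Peaks of the set were more numerous and wider in cKO than in WT. They made up 7.50% (7.33 to 7.67) of the cKO list and 6.50% (6.25 to 6.76) of the WT list, but 12.1% of all intron peaks in cKO and 13.1% in WT. The cKO list held 3.00 times as many (interval 2.86 to 3.14) as the WT list. That ratio was below the 3.22 (3.15 to 3.30) of internal-intron peaks on transcripts with 10 to 29 introns and the 3.38 (3.26 to 3.51) on transcripts with fewer than 10, and above the 2.60 of the whole lists. Among transcripts of 30 to 39, 40 to 49, 50 to 69 and 70 to 115 introns the ratio was 2.95, 2.98, 3.20 and 3.04.

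The median width was 432 bp in cKO (quartiles 273 and 771) and 261 bp in WT (quartiles 193 and 393). Over the whole lists it was similar, at 436 bp in cKO and 271 bp in WT. The widest peak spanned 22024 bp in cKO and 5098 bp in WT. Peaks over 2000 bp numbered 359 in cKO, 5.00% of the set, and 7 in WT, 0.292% of the set. In the whole lists their share was 5.99% in cKO and 0.475% in WT. Those 359 held 25.8% of the covered length in cKO. The summed length of all peaks of the set came to 5.00 Mb in cKO against 0.826 Mb in WT (ratio 6.05). Their mean width was 696 bp in cKO and 345 bp in WT. The ratio of covered length was 6.48 for transcripts with 10 to 29 introns and 5.18 for the whole lists. Fold enrichment is the authors' own value for each peak and is given within each list only. Its median over peaks of the set was 5.26 in cKO (quartiles 4.41 and 6.58) and 5.00 in WT (quartiles 4.44 and 5.83). Over the whole lists it was 5.17 in cKO and 5.00 in WT.

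**Figure D1:**
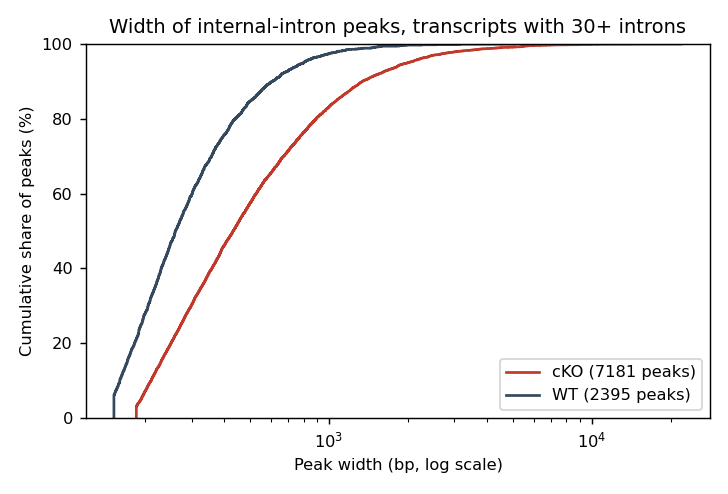
Cumulative share of internal-intron peaks on transcripts with 30 or more introns (y axis, %) by peak width (x axis, bp, log scale), 1 line for each genotype's list. The cKO line lies to the right of the WT line, with medians of 432 bp in cKO and 261 bp in WT.

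Nearly every WT peak of the set lay under a cKO peak, while most cKO peaks had no WT peak under them. At least 1 shared base was found for 2322 of the 2395 WT peaks, or 97.0% (96.2 to 97.6), against 96.0% of WT peaks of any class. A WT peak lay under 1739 of the 7181 cKO peaks, or 24.2% (23.2 to 25.2), and under 25.3% of cKO peaks of any class. Both shares were thus close to those of the lists as a whole. When an overlap of at least 50% of both peaks was required, 5.53% of cKO peaks and 16.7% of WT peaks had a partner. By length, 17.2% of the bases of the cKO peaks lay inside WT peaks, and 95.8% of the bases of the WT peaks lay inside cKO peaks.

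Shared peaks were the wider ones in each list. The median width was 931 bp for cKO peaks with a WT partner and 360 bp for those without, and 264 bp for WT peaks with a cKO partner and 199 bp for those without. Over the whole lists it was 1011 bp with and 356 bp without a partner in cKO. In WT it was 275 bp with and 201 bp without, so this was not particular to the set. Some cKO peaks spanned several WT peaks. In cKO, 376 of the 7181 peaks of the set held 2 or more WT peaks each, with up to 20 in 1 peak. Over the whole cKO list, 6080 of 95750 peaks did so. Of the WT peaks, 1060 (44.3%) lay in a cKO peak that held 2 or more, and 1262 (52.7%) were alone in theirs. Because a peak carries 1 label, a WT peak of the set could lie under a cKO peak of another class. The cKO peak was itself in the set for 1928 WT peaks (80.5%), and it was labelled as an exon for 270 (11.3%), as a termination site for 53 and as a promoter for 51.

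The widest cKO peaks each spanned many WT peaks. Dync1h1, the heavy chain of cytoplasmic dynein, carried a cKO peak of 22024 bp (chr12:110622527-110644550, mm10), labelled intron 28 of 76, that overlapped 20 WT peaks. Kmt2d, an H3K4 methyltransferase, carried a cKO peak of 20351 bp labelled intron 35 of 54 that overlapped 19. The 14520 bp cKO peak of Sptan1 described above overlapped 15. Peaks this wide run across many introns and exons, so the count of labelled introns is a lower bound and is lowered most in cKO.

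The strongest peaks by the authors' −log10 q lay in genes of several functions. In cKO the first was in Chd4, the NuRD remodeller, at chr6:125104147-125112220 (mm10), intron 15 of 38, with a −log10 q of 101 and 6 WT peaks under it. Myh10, a non-muscle myosin, Dync1h1 and the RNA exonuclease gene Xrn1 followed in cKO. In WT the first was in Trio, an exchange factor used in axon guidance, at chr15:27741374-27742447 (mm10), intron 50 of 56, with a −log10 q of 48.9. Cep290, Myh10, Macf1 and Ppfia1 followed in WT, and each of these 5 WT peaks was overlapped by a cKO peak. The widest WT peaks were in Thada, Notch1 and Ncapd2, at 5098, 3161 and 3119 bp.

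Peaks without a partner had a lower fold enrichment within each list, with a median of 4.93 without and 6.92 with a partner in cKO, and 4.72 without and 5.00 with a partner in WT. The whole lists were similar, with 4.93 without and 6.93 with a partner in cKO, and 4.72 without and 5.04 with in WT. By −log10 q, the strongest peaks of the set without a partner in cKO were in Bdp1, Nup205, Dnajc13, Hip1 and Depdc5, with −log10 q from 32.4 to 37.3. The strongest in WT were in Kif21a, Cplane1, Atm, Vps8 and Kidins220, with −log10 q from 9.42 to 11.1. The 73 WT peaks without a partner were spread over 58 host genes, with at most 4 in a gene. That gene was Epg5, an autophagy gene, where 4 of 9 WT peaks had none.

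Joining peaks of a gene that lay within 3000 bp of each other reduced the difference in number. The joined stretches numbered 1631 in cKO and 1102 in WT (1.48 times as many in cKO), and their median length was 2343 bp in cKO and 422 bp in WT. The longest was 84049 bp in cKO, joining 63 peaks of Clasp1, which encodes a microtubule plus-end protein (chr1:118497644-118581692, mm10). The longest in WT was 34760 bp, joining 25 peaks of the remodeller gene Chd2 (chr7:73465544-73500303, mm10).

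Along the order of introns, the cKO peaks leaned to the 5′ side and the WT peaks to the 3′ side, by a few points. With the internal introns divided into 5 equal parts from 5′ to 3′, the shares in cKO were 22.4, 19.6, 20.1, 19.2 and 18.6%. In WT they were 18.9, 18.7, 19.8, 20.7 and 22.0%. The first part had an interval of 21.4 to 23.4% in cKO and 17.4 to 20.5% in WT, and the last part 17.7 to 19.6% in cKO and 20.3 to 23.7% in WT. Transcripts with 10 to 29 introns had 22.7% in the first part in cKO and 19.1% in WT, a lean of the same direction. By covered length the cKO profile was flatter, with 20.3% in the first part and 20.5% in the last, against 18.4 and 21.5% in WT. The difference in the first part, of 3.46 points, was lost after keeping only as many top-ranked cKO peaks, by −log10 q, as the WT list held, where it was -0.0235 points, and the difference in the last part was -1.86 points there, against -3.33 in the full lists. With the cKO list cut by rank to the WT covered length both turned round, to -2.75 points in the first part and 3.24 in the last.

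**Figure D2:**
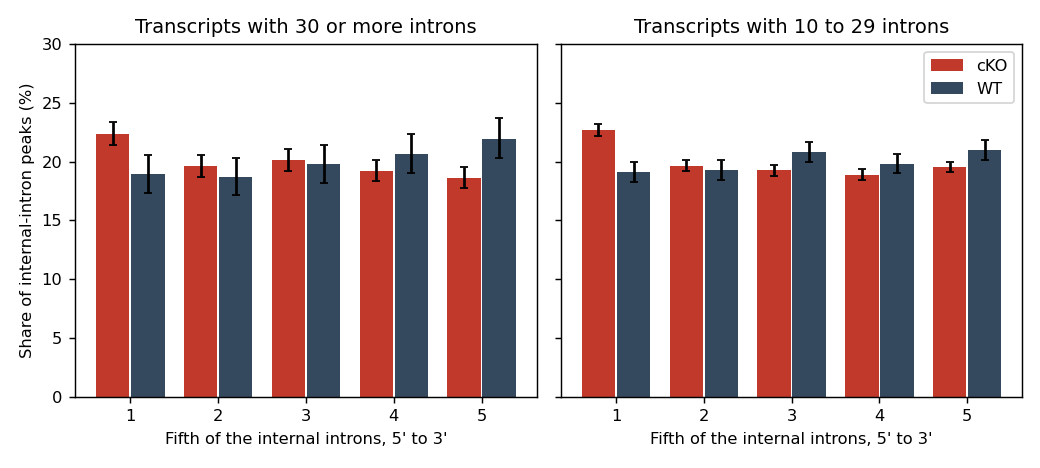
Share of internal-intron peaks (y axis, %) in each of 5 equal parts of the internal introns from 5′ to 3′ (x axis), for transcripts with 30 or more introns (left) and 10 to 29 introns (right), with exact 95% binomial intervals as error bars. In the left panel the first part holds 22.4% of cKO peaks and 18.9% of WT peaks, and the last part 18.6% of cKO peaks and 22.0% of WT peaks.

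Measured along the gene instead, in the host genes whose strand is known, both lists leaned to the 3′ side. The median peak lay 60.9% of the way along the gene in cKO (5633 peaks) and 64.4% in WT (1866 peaks). The last of 5 equal parts of the gene held 24.8% (23.7 to 25.9) of cKO peaks and 29.2% (27.1 to 31.3) of WT peaks. For transcripts with 10 to 29 introns the last part held 22.3% in cKO and 23.7% (22.7 to 24.7) in WT. Their median peak lay at 60.3% in cKO and 62.0% in WT, so the lean was shared by that class. The rule leaves out the first and last introns, so parts of each gene could hold no peak of the set. How far the lean follows from that rule was not tested.

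Most introns that carried the mark held a single peak. The labels named 4651 introns in cKO and 1919 in WT, and 1345 introns were named in both, which is 28.9% of those in cKO and 70.1% of those in WT. A single peak was found in 67.1% of the cKO introns and 81.6% of the WT introns. The most in 1 intron was 17 in cKO, in intron 2 of 66 of Wdfy3, and 8 in WT, in intron 29 of 33 of Smarca4. Over the genes with peaks in both lists, the median share of internal introns that held a peak was 35.3% in cKO and 13.1% in WT. Introns were counted on 1 transcript per gene, the one with the most peaks of the set. Peaks labelled with other transcripts of the gene were left out of this share. Introns named in both lists, introns with a single peak and marked shares were not counted apart for shorter transcripts. Whether these values are particular to the set was therefore not tested. The median difference of 20 points was 3.33 points with the cKO list cut by rank to the WT number of peaks, and it turned to -16.1 points with the list cut to the WT covered length.

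Per gene, covered length was higher in cKO almost throughout. Of the 291 host genes with peaks of the set in both lists, 270 (92.8%) had at least 2-fold more covered length in cKO, against a background of 91.4% over 3689 genes with internal-intron peaks in both lists. At least 2-fold less was seen in 6 genes (2.06%), against 0.813%, and 15 lay between. Peaks in cKO alone were found in 99 of 397 host genes (24.9%), against 38.7% of 6379 genes, and peaks in WT alone in 7 (1.76%), against 3.46%. The count of higher genes was therefore near the background. With the cKO list cut by rank to the WT number of peaks, 235 of 271 genes were higher and 3 lower. As a share of genes in both lists, this was below the 270 of 291 in the full lists. Among genes called either way, 98.7% were higher, against 97.8% in the full lists. This last share leaves out genes that lay between, so it is not to be set beside the 92.8% or the background. No background stands beside the cut lists. With it cut to the WT covered length, 148 genes had peaks in both lists, 33 of them higher and 32 lower (50.8% of calls higher). That cut sets the summed length of the cKO list to that of WT, so it cannot show whether covered length differed. The median fold in covered length was 8.32 (quartiles 4.55 and 12.7) for the host genes and 6.85 (3.95 and 11.7) for all genes with internal-intron peaks.

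The 4 genes with the most cKO peaks were Syne2, Clasp1, Trio and Wdfy3. Syne2, which links the nuclear envelope to the cytoskeleton, had 103 peaks over 72571 bp in cKO and 55 over 17598 bp in WT. Clasp1 had 91 over 67509 bp in cKO and 34 over 11096 bp in WT. Trio had 88 over 58329 bp in cKO and 31 over 9221 bp in WT. Wdfy3, a scaffold of selective autophagy, had 85 over 61919 bp in cKO and 37 over 12915 bp in WT. In these 4 genes covered length was 4.12-fold to 6.33-fold higher in cKO, below the median fold of the host genes.

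Cabin1, a calcineurin-binding protein, differed more. It had 59 peaks over 45937 bp in cKO and 5 over 2107 bp in WT, 21.8-fold in covered length. Cep192 and Herc2 had 63 peaks each in cKO, and 12 and 11 in WT. Xrn1 had 62 in cKO and 11 in WT, the Ras regulator gene Nf1 58 in cKO and 8 in WT, and the citron kinase gene Cit 57 in cKO and 8 in WT.

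Of the 397 host genes, 33 had fewer but on average wider peaks in cKO and more covered length there. Some of the genes with the most WT peaks were among them. The share of such genes outside the set was not counted. Gtf3c1, a subunit of the general factor TFIIIC, had 20 peaks over 54126 bp in cKO and 41 over 16439 bp in WT. Smarca4, the BRG1 remodeller ATPase, had 22 over 33185 bp in cKO and 41 over 19968 bp in WT. Map4k4 had 36 over 36093 bp in cKO and 41 over 16278 bp in WT, and Dync1h1 had 7 over 39252 bp in cKO and 23 over 13783 bp in WT.

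**Figure D3:**
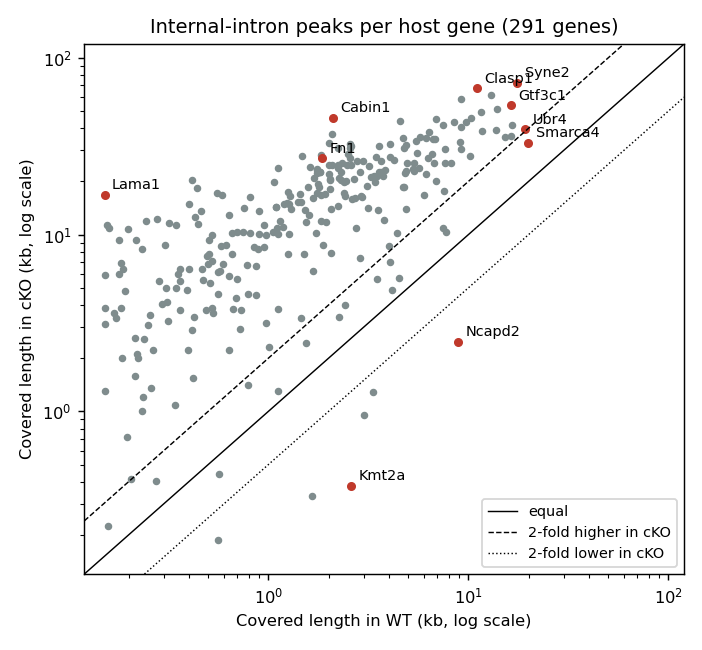
Covered length of internal-intron peaks per host gene in cKO (y axis, kb, log scale) against WT (x axis, kb, log scale) for the 291 genes with peaks in both lists; lines mark equal length and 2-fold either way. Of these genes, 270 lie on or above the upper line and 6 on or below the lower one, Ncapd2 and Kmt2a among them.

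The 6 genes called lower were Ncapd2, Kmt2a, Fasn, Scrib, Celsr2 and Greb1l. Ncapd2, a condensin subunit, had 2 peaks over 2485 bp in cKO and 11 over 8872 bp in WT. Kmt2a, an H3K4 methyltransferase, had 1 over 380 bp in cKO and 5 over 2604 bp in WT. In 5 of the 6, all but Greb1l, every base of the WT peaks lay inside cKO peaks of any class. The genes' own cKO peaks of the set were too short to hold all these bases, so other cKO peaks held a part. Peaks of any class covered 85.5% of the Ncapd2 gene body in cKO and 57.5% in WT, and 52.9% of Kmt2a in cKO and 23.2% in WT. In all 5, peaks of any class covered more of the gene body in cKO than in WT.

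Greb1l had 1 peak over 187 bp in cKO and 2 over 563 bp in WT, at different places. The 7 genes with peaks of the set in WT alone were Atp8a2, Lrp1b, Ank1, Gsap, Plxnb2, Tep1 and Wdr90, with 1 or 2 peaks each. No cKO peak of any class touched 4 of them. The single WT peaks of the semaphorin receptor gene Plxnb2 and of Wdr90 lay wholly inside cKO peaks of other classes.

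Of the 99 host genes with peaks in cKO alone, 33 had a single peak and 19 had 10 or more. The most were in Dync2h1, the dynein heavy chain of cilia, with 25 in cKO and 0 in WT. Fbn1, which encodes the microfibril protein fibrillin, had 22 in cKO, the lipid kinase gene Pi4ka 20, and Hspg2, which encodes the basement membrane proteoglycan perlecan, 19, each with 0 in WT.

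The host genes were then read by function in 13 lists, which named 211 genes of the reference. Of these, 156 were hosts, with 3316 peaks of the set in cKO and 1255 in WT. Each list is described by its counts, beside the ratio of 3.00 and the median fold of 8.32 of the whole set. Counts of genes called higher are to be read against the 92.8% of all host genes and the 91.4% of all genes with internal-intron peaks in both lists, so a list in which every such gene was higher is near the background.

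**Figure D4:**
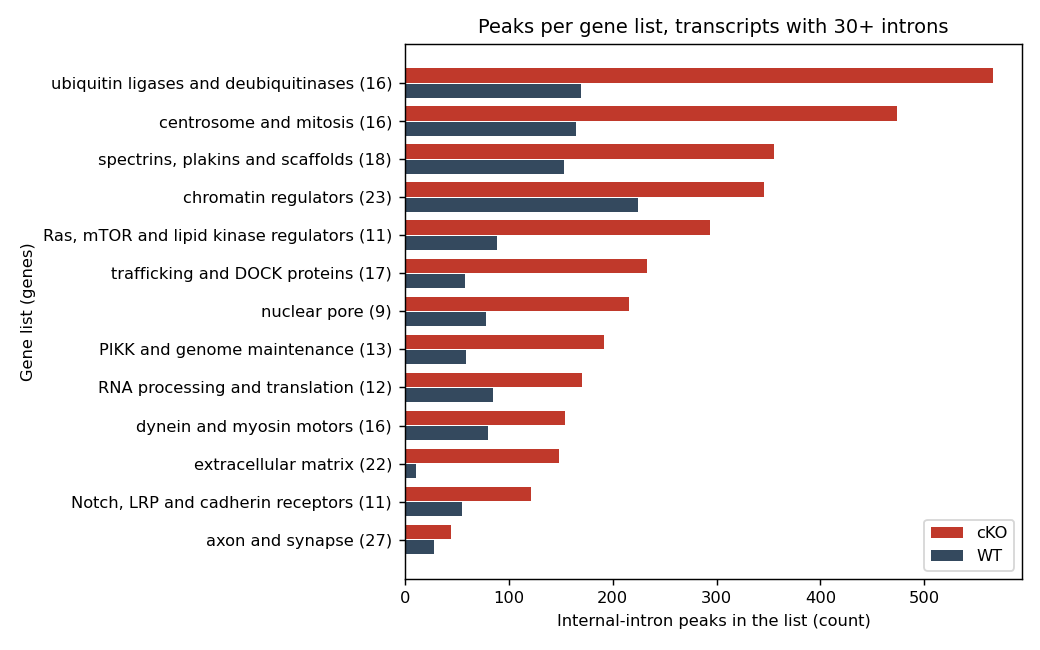
Number of internal-intron peaks (x axis, count) in each of 13 gene lists (y axis, with the number of genes in brackets), with cKO bars above WT bars. The ubiquitin list has 566 peaks in cKO and 170 in WT, and the extracellular matrix list 148 in cKO and 11 in WT.

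Ubiquitin ligases and deubiquitinases, which tag proteins for turnover or remove the tag, held the most peaks. The 16 genes had 566 in cKO and 170 in WT, and all 14 with peaks in both lists were called higher, with a median fold of 8.30. Herc2 covered 34662 bp in cKO and 6624 bp in WT. Ubr2, with 41 peaks in cKO and 26 in WT, covered 40779 bp in cKO and 9148 bp in WT. Ubr4 again had fewer peaks but more length, with 22 over 39568 bp in cKO and 34 over 19245 bp in WT.

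Chromatin regulators had the lowest ratio of the lists, 1.54, with 346 peaks in cKO and 224 in WT. Of the 19 of 23 genes with peaks in both lists, 15 were called higher and 1 lower, Kmt2a, with a median fold of 4.76. Chd9 had 52 peaks over 34986 bp in cKO and 22 over 6835 bp in WT. Chd2 had 33 over 35548 bp in cKO and 32 over 15175 bp in WT. Chd4 had 5 over 10897 bp in cKO and 13 over 7472 bp in WT.

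The list of PI3K-like kinases and genome maintenance genes had 192 peaks in cKO and 59 in WT, and 9 of 9 genes with peaks in both were called higher. Mdn1, a ribosome-assembly ATPase placed in this list, had 47 peaks in cKO and 13 in WT. Trrap, a scaffold of acetyltransferase complexes, had 24 over 49525 bp in cKO and 32 over 11530 bp in WT. Among RNA processing and translation genes, with 171 peaks in cKO and 85 in WT, 7 of 9 were called higher. Cnot1, the scaffold of the deadenylase complex, had 27 peaks over 30551 bp in cKO and 27 over 9148 bp in WT.

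Centrosome and mitosis genes had 474 peaks in cKO and 165 in WT, and of 13 genes with peaks in both lists 12 were called higher and 1 lower, Ncapd2. The centrosomal scaffold gene Pcnt had 45 peaks over 43637 bp in cKO and 29 over 9683 bp in WT. Cdk5rap2, a centrosomal protein whose loss causes microcephaly in humans, had 53 over 28180 bp in cKO and 7 over 1836 bp in WT. Motor genes had 154 in cKO and 80 in WT, and 7 of 7 were called higher. Of the 6 axonemal dynein genes in the list, which serve motile cilia, Dnah1 had 1 peak in cKO and 0 in WT, and Dnah2, Dnah5, Dnah8, Dnah9 and Dnah11 were not hosts.

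Spectrins, plakins and scaffolds had 355 peaks in cKO and 153 in WT, with 11 of 12 called higher, and Syne2 and Macf1 held the most. Trafficking and DOCK genes had 233 in cKO and 58 in WT, with 6 of 9 called higher, led by Wdfy3. Regulators of Ras, mTOR and lipid kinases had 294 in cKO and 89 in WT, with 7 of 7 called higher. Mtor, the kinase of nutrient signalling, had 44 over 45905 bp in cKO and 35 over 10349 bp in WT. Nuclear pore genes had 216 in cKO and 78 in WT, with 8 of 8 called higher, and Nup205 had 46 in cKO and 16 in WT.

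Notch, LRP and cadherin-family receptor genes had 122 peaks in cKO and 55 in WT, with 6 of 8 called higher and 1 lower, Celsr2. Notch2 had 35 over 31109 bp in cKO and 7 over 2565 bp in WT. Notch1, the main Notch receptor of cortical progenitors, had 3 over 10392 bp in cKO and 9 over 7773 bp in WT. Of 27 axon and synapse genes, 9 were hosts and 18 were not, and 12 of those had no peak of any class in either list, while the list held 45 peaks in cKO and 28 in WT.

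In the full lists, the extracellular matrix list stood furthest from the ratio of the set. Its 22 genes had 148 peaks over 86769 bp in cKO and 11 over 2712 bp in WT, ratios of 13.5 in number and 32.0 in covered length. Of its 11 hosts, 4 had peaks in both lists and were called higher, and 7 had peaks in cKO alone. Fn1, which encodes fibronectin, had 42 peaks over 27021 bp in cKO and 8 over 1853 bp in WT. Lama1, a laminin chain of the early basement membrane, had 35 over 16823 bp in cKO and 1 over 152 bp in WT.

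Col18a1 had 15 peaks in cKO and 0 in WT, beside Fbn1 and Hspg2 above. Among the other collagen and laminin hosts, Col2a1, a fibrillar collagen, had 2 peaks over 9993 bp in cKO and 1 over 521 bp in WT, Col5a1 and Lamb2 had 2 peaks each in cKO and 0 in WT, and Col4a1 and Lamb1 had 1 each in cKO and 0 in WT. Of the 11 genes of the list that were not hosts, 9 had no peak of any class in cKO or WT, Col1a1, Col1a2 and Col3a1 among them. Those 3 and Pdgfrb, the mesenchyme and pericyte markers, and the 4 endothelial markers had no peak in either list, and the part of other cell types in the matrix result was not tested. Keeping only as many top-ranked cKO peaks as the WT list held gave a ratio in number of 3.36, against 1.17 for the whole set, and keeping only as much covered length gave 0.182, against 0.152 for the whole set. At matched length the list kept only 2 cKO peaks, from 1 host gene, against 11 in WT. These are too few to place the list beside the set. The ratio in covered length was 15.4 at matched number, against 3.84 for the whole set, and 0.769 at matched length, against 1.04. The list was looked at under these settings after its count was seen.

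Hosts on the X chromosome also had few WT peaks. They held 73 peaks in cKO (1.02% of the set) and 6 in WT (0.251%), 12.2 times as many in cKO, against 2.98 on the autosomes. The X ratio was 28.0 for internal-intron peaks on transcripts with 10 to 29 introns, 11.1 on those with fewer than 10 and 8.30 over the whole lists, so a high X ratio was shared by the other classes. Peaks of the set were found in 11 X-linked hosts in cKO and 3 in WT. Taf1, a subunit of the general factor TFIID, had 18 in cKO and 0 in WT, Usp9x 16 in cKO and 2 in WT, and Huwe1 12 in cKO and 0 in WT.

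The gene name in the deposited annotation was often not that of the gene that holds the intron, as the annotation names the gene with the nearest start. It differed from the host for 2707 cKO peaks, or 37.7% (36.6 to 38.8), and for 915 WT peaks, or 38.2% (36.3 to 40.2). The share was 31.6% in cKO and 32.8% in WT for transcripts with 10 to 29 introns, and 20.7% in cKO and 20.3% in WT for those with fewer than 10. Peaks in introns of Trio were listed under Fam105a 61 times in cKO and 22 times in WT. Peaks of Tmem131l were listed under the Toll-like receptor gene Tlr2 26 times in cKO and 25 times in WT, and peaks of Herc2 under the pigmentation gene Oca2 43 times in cKO and 6 times in WT.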

How the data were processed

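H3K36me3 ChIP and input libraries of H2A.z1cKO and WT forebrain were analysed from the deposited peak lists and annotations. Reads were aligned with Bowtie2 to mm10, per the submitters' processing notes, and peaks were called with MACS 2.1.1.20160309 at a p cutoff of 1.00e-05, per the file headers. The deposited pileup is a coverage signal at the summit, the deposited −log10 p and q are the caller's, and the deposited fold enrichment is a ratio over local background. No source used here names the tool that made the annotation.

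Peaks were joined to annotations by position. A host gene was the gene of the annotated intron's transcript, taken from the authors' names or from the RefSeq protein-coding span that held at least 95% of that transcript's peak midpoints. Overlap needed 1 shared base. A gene was called at 2-fold in covered length, with no test. Scripts used Python 3.11.15, pandas 2.3.3, numpy 2.4.6 and scipy 1.17.1, and overlap and position functions were tested on simulated data. Genes were named by the most peaks, by the largest and smallest differences in covered length and within lists; strongest and widest peaks by rank. Other genes, among them hosts with peaks in 1 list alone, X-linked hosts, non-hosts and those of the naming and sequence paragraphs, were chosen after their values were seen. The members and lists were chosen with earlier results of these data known. 1 peak that the naming rule selects is not reported here. Alternatives were thresholds on −log10 q and fold, lists reduced to matched number or length, other intron minimums, stricter overlap, joined peaks and a 4-fold call.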

Additional observations from a re-analysis of the deposited data

How the results depend on the processing

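Under the alternatives 46 values stayed within the counting interval of the reported value (for gene counts and covered length, within 1.5 times of it), 34 moved beyond that and 6 changed direction. Some of the 46 still shifted, such as genes called lower, 4 at the q or fold threshold against 6. The cKO to WT ratio in number of peaks was 3.81 at a −log10 q of at least 5, 2.79 at a fold enrichment of at least 4, 1.17 with the cKO list reduced by rank to the WT number of peaks, 0.152 with it reduced to the WT covered length, 3.18 with 20 or more introns and 1.48 after joining. The difference in share of the list, 0.995 points, was 0.372 at matched length, 3.33 with 20 or more introns and 0.531 with 40 or more. The ratio of median width was 1.79 at the fold threshold, 2.94 at matched number and 6.03 at matched length, and that of covered length was 3.84 at matched number and 1.04 at matched length. The share of cKO peaks with a WT partner was 19.8% at the q threshold, 49.1% at matched number, 92.6% at matched length, 23.1% with 20 or more introns and 5.53% with reciprocal overlap. The share of WT peaks with a cKO partner was 92.4% at the fold threshold, 81.3% at matched number, 30.2% at matched length and 16.7% with reciprocal overlap. The difference in the first of 5 parts of the introns, cKO minus WT, was -0.0235 points at matched number and -2.75 at matched length, and that in the last part, -3.33 points, was -1.86 at matched number, 3.24 at matched length and -5.35 with 40 or more introns. The median difference in marked introns was 17.9 points at the fold threshold, 3.33 at matched number and -16.1 at matched length. Genes called higher numbered 33 at matched length, 809 with 20 or more introns and 108 with 40 or more. Genes called lower numbered 3 at matched number, 32 at matched length, 10 with 20 or more introns, 1 with 40 or more and 2 at a 4-fold call. The extracellular matrix ratio was 19.1 at the q threshold, 3.36 at matched number and 0.182 at matched length, settings chosen after seeing the data. The reduced lists hold the highest-ranked cKO peaks, which are the wide ones, so fewer of them fill the same length. The cause of the other changes was not tested.

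With 1 ChIP library per genotype, genotype and library cannot be told apart, and depth and fragment length differed between the libraries. The smallest peak width follows the fragment length. No paired analysis was possible because each group has 1 library and no result comes from a test.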
